A study of Mus musculus with 24 samples.

Results

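The ventral prostates of AKR and SWR mice were compared on 8 arrays, 4 from each inbred strain, out of 24 arrays that covered 6 strains. The members were the arrays titled for either strain, and every probe set on them that is not a control was used, which gave 22626 of 22690 probe sets. All mice were wild type, 8 weeks old, untreated and on a standard diet, so that strain is the factor that the labels vary. The labels call the arrays of a strain biological replicates, without saying whether 1 animal or a pool stands behind each. Total RNA was labelled with biotin and hybridised to Affymetrix mouse arrays, and the deposited intensities were read here as log2(intensity + 16), called the log2 value. The title of the series names a search for cancer modifiers by expression mapping in parental strains, and none of these mice is labelled as carrying a tumour.

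The ventral prostate is an androgen-dependent gland whose luminal epithelial cells secrete proteins into the seminal fluid, with basal cells beneath them and a stroma of fibroblasts and smooth muscle around the ducts. Inbred strains are each homozygous for their own set of alleles, so strains of the same age and diet can be set against each other for inherited differences in transcript level. Interferon response genes are switched on through an interferon-stimulated response element in their promoters, and heat shock genes by HSF1, which binds inverted repeats of the pentamer in a heat shock element.

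AKR and SWR ventral prostates differed at 1583 of 15775 tested probe sets (10.0%) at an adjusted p under 0.05 in limma, 752 higher in AKR (4.77%) and 831 lower (5.27%). The median called difference was 1.54-fold, 259 called probe sets differed by at least 2-fold and 40 by at least 4-fold. The 4 AKR and the 4 SWR arrays did not overlap at 1326 of the called probe sets (83.8%), against 15.0% of all tested ones. The calls come from the same arrays and favour groups that lie apart, so these shares are a description. With each gene read at its brightest tested probe set, 960 of 9431 genes (10.2%) were called, 449 higher in AKR (4.76%) and 511 lower (5.42%), with a median difference of 0.04 over all genes. These shares are the background for the gene lists below. Among the 15 pairs of strains this pair came 10th by calls, in a range from 1084 to 3117. When any 1 of the 8 arrays was left out, the total ran from 1068 to 1985 probe sets, and it was 911 when the 8 arrays were fitted without the other strains.

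**Figure D1:**
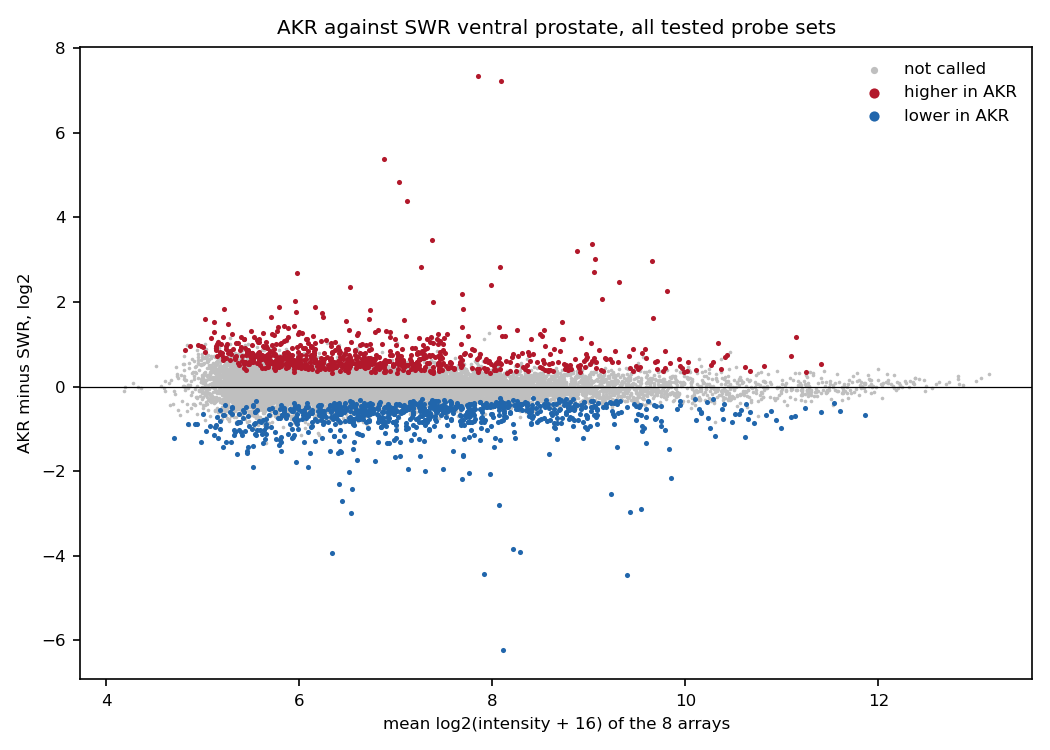
Each point is 1 of the 15775 tested probe sets, with the mean log2(intensity + 16) of the 8 arrays on the x axis and the AKR minus SWR difference in log2 on the y axis. Red and blue points are the 752 and 831 called probe sets, which spread over the whole range of intensities.

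Each of the 8 arrays correlated best with an array of its own strain. Pearson's r over the tested probe sets averaged 0.949 within AKR, 0.963 within SWR and 0.925 between the strains, as a description. None of the 9 tested luminal epithelium genes was called, where the share over all genes was 10.2%. The luminal keratin genes Krt8 and Krt18 had mean log2 values of 9.74 and 10.71 in AKR against 9.87 and 10.72 in SWR. Spink1, a secreted protease inhibitor abundant in mouse prostate, was at 12.95 against 12.69. None of the tested genes of the adipocyte (7), macrophage (9), lymphocyte (6) or skeletal muscle (10) lists was called. A skeletal muscle score, the mean of the list's log2 values centred over the 24 arrays, was however 1.19 in SWR replicate 4 and between −0.50 and 0.03 in the other 7 arrays.

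Among interferon response genes the calls all had AKR above SWR. Of the 26 listed, 20 were tested, 11 were higher in AKR (background 4.76%), 0 lower and 9 not called, with a median difference of 0.86 on the log2 scale against 0.04 over all genes. Irf7 and Ifit1, the transcription factor that amplifies interferon production and an RNA-binding antiviral protein, stood 2.53-fold and 2.33-fold higher. The promoter windows of Ifit1, Ifit3, whose protein partners Ifit1, and Oas1a, an enzyme that makes the activator of RNase L, are shown because each held the response element. Sequences are those of RefSeq on GRCm38.p6, 250 bases before to 50 after the annotated start, 5′ to 3′ on the gene's strand, with matches to the response element, taken as GAAA, any 2 bases and GAAA again on either strand, in capitals.
Ifit1 (chr19:34640639-34640938, plus strand): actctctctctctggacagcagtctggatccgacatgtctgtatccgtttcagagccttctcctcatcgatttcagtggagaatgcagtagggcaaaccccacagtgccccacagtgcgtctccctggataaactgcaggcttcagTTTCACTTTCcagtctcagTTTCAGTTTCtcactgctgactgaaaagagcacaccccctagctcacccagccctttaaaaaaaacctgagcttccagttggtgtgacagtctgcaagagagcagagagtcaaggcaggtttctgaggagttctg
Ifit3 (chr19:34583279-34583578, plus strand): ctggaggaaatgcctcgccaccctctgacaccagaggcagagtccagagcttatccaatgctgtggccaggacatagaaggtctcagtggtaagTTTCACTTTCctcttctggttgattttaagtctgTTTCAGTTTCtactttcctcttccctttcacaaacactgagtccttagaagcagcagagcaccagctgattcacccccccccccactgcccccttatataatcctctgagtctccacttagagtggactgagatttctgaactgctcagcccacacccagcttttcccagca
Oas1a (chr5:120907476-120907775, minus strand): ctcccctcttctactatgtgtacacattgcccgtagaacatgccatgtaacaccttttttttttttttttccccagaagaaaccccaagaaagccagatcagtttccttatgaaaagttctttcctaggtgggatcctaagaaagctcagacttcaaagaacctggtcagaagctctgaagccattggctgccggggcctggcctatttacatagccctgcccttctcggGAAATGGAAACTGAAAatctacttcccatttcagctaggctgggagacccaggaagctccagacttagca
The Ifit1 window held 2 matches, beginning 104 and 85 bases before the start, and the Ifit3 window held 2, at 156 and 122 bases before it. In Oas1a the 2 matches overlapped, and began 20 and 14 bases before the start. Over all 32851 windows of this length 3.44% held the motif, or 3.99% of genes. It was found in 6 of the 9 called genes with a window and in 3 of the 6 uncalled ones, as a description of the letters.

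Irf7 read 7.19, 7.63, 7.47 and 7.64 on AKR arrays 1 to 4 and 6.35, 6.11, 6.15 and 5.96 on the SWR arrays, a log2 difference of 1.34 (adjusted p = 0.00017). The lowest AKR array was above the highest SWR array. For Ifit1 the AKR values were 7.53, 7.43, 6.91 and 6.94 and the SWR values 5.93, 5.78, 6.21 and 6.02, a log2 difference of 1.22 (adjusted p = 0.00034), again without overlap. Ifit3 varied little within its groups, at 6.70, 6.88, 6.61 and 6.76 in AKR and 5.33, 5.57, 5.50 and 5.74 in SWR (2.30-fold, adjusted p = 0.00032). Rtp4, an interferon-induced chaperone of cell surface receptors, read 6.97, 7.81, 6.74 and 7.20 in AKR and 6.16, 5.80, 5.86 and 5.60 in SWR (2.51-fold, adjusted p = 0.0041). AKR replicate 2 was the highest array for this gene and the groups did not overlap.

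Members with smaller differences included sensors, enzymes and signalling parts of the same response. Oasl2, an OAS-like antiviral protein, was 2.25-fold higher in AKR, Usp18, which removes ISG15 from proteins and damps interferon signalling, 2.08-fold, and Oas1a 2.02-fold. The RNA sensor Ifih1 was 1.85-fold higher and the antiviral enzyme Rsad2 1.83-fold. Irf9 and Stat2, transcription factors of the interferon response, were 1.63-fold and 1.51-fold higher (adjusted p = 0.031 and 0.0071). Among the 9 uncalled members were Ifi27l2a, with a log2 difference of 1.05 (adjusted p = 0.10), and Bst2, with 0.85 (adjusted p = 0.23). Irf1, Igtp and Iigp1, also uncalled, had smaller differences of 0.13, 0.15 and 0.09. Gbp2 and Mx1 went the other way, each at −0.18, while 18 of the 20 tested members had a positive difference. The list score ran from −0.01 to 0.41 on the AKR arrays and from −0.57 to −0.36 on the SWR arrays. The count of called members was 10 to 12 with any 1 of the 8 arrays left out.

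Both strains were also set against the mean of 129X1, FVB, BALB/c and C57BL/6. Irf7 was 1.06 lower in SWR than that mean on the log2 scale (adjusted p = 0.00018), while AKR differed from it by 0.28 (adjusted p = 0.33). Ifit1 was 0.97 lower in SWR (adjusted p = 0.00033) and differed by 0.25 in AKR (adjusted p = 0.38). For Ifit3 both tests passed in opposite directions, with AKR 0.56 above the mean (adjusted p = 0.028) and SWR 0.65 below it (adjusted p = 0.01). Both comparisons use the same 16 arrays of the other strains, and whether the AKR and SWR departures differ in size was not tested. The mean covers unlike strains. FVB was its lowest strain for these genes, at 6.71 for Irf7, 6.40 for Ifit1 and 5.66 for Ifit3, the last close to SWR at 5.54. The highest was 129X1, above AKR for Irf7 (8.05 against 7.48) and Ifit1 (7.33 against 7.21) and close to it for Ifit3 (6.67 against 6.74).

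The called heat shock genes were all higher in AKR. Of the 16 listed, 14 were tested, 6 were higher in AKR (background 4.76%), 0 lower and 8 not called, with a median difference of 0.48, and 3 were called when the 8 arrays were fitted without the other strains. The inducible Hsp70 chaperones are encoded by Hspa1b, 7.80-fold higher, and Hspa1a, 7.05-fold higher. The Hspa1b promoter window of RefSeq on GRCm38.p6 is shown because this gene led the list, with the match to the palindrome GAANNTTC in capitals.
Hspa1b (chr17:34959189-34959488, minus strand): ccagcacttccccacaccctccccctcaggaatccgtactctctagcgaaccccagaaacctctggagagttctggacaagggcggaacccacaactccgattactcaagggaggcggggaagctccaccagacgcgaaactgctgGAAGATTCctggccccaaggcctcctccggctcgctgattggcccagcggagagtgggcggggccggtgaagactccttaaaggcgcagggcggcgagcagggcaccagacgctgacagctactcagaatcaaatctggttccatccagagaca
The match began 104 bases before the annotated start. The Hspa1a window was identical at 296 of the 300 bases (98.7%) and held its match at the same distance. GAANNTTC was in 7.86% of all windows and 9.04% of all genes, in 4 of the 5 called heat shock genes with a window and in 6 of the 7 uncalled ones.

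Hspa1b read 10.29, 11.75, 12.04 and 10.45 on the AKR arrays and 8.15, 8.18, 8.03 and 8.33 on the SWR arrays, with means of 11.13 ± 0.89 and 8.17 ± 0.12 (SD, n = 4) and an adjusted p of 1e-05. AKR replicates 2 and 3 were well above replicates 1 and 4, and all 4 were above every SWR array. AKR replicates 2 and 3 were again the highest for Hspa1a, at 7.52, 10.02, 9.45 and 7.69 in AKR and 5.69, 5.96, 5.81 and 5.95 in SWR (log2 difference 2.82 ± 0.41 SE, adjusted p = 5.3e-05). Its SD was 1.25 in AKR and 0.13 in SWR. The SE and p rest on 1 spread for all strains and do not reflect the wider one within AKR. Because Hspa1b and Hspa1a are near-identical copies, a probe set for one can take up RNA of the other. They may be 1 signal, although the counts of genes given here take them as 2. With 1 array left out at a time the Hspa1b difference ran from 6.32-fold to 9.47-fold and the Hspa1a difference from 5.16-fold to 9.19-fold. All 3 probe sets of Hspa1b were higher in AKR.

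The co-chaperones of Hsp70 were less far apart. Dnaja1 read 8.96, 9.81, 10.01 and 9.37 in AKR and 8.65, 8.71, 8.35 and 8.98 in SWR (1.82-fold, adjusted p = 0.0073), and AKR replicate 1 lay below SWR replicate 4. Dnajb1 was 1.70-fold higher (adjusted p = 0.012), with overlap between the groups, and its adjusted p was 0.059 without AKR replicate 3. Hsp90aa1, the inducible Hsp90, was 1.53-fold higher and Bag3, a co-chaperone that links Hsp70 to autophagy, 1.39-fold. Hsph1, a nucleotide exchange factor for Hsp70, was not called, with 6.47, 8.48, 8.92 and 7.93 in AKR against 7.23 to 7.65 in SWR. Hspb8, also uncalled, went the other way at −0.34, while 13 of the 14 tested members had a positive difference. The list score was 0.13, 0.86, 1.04 and 0.40 on the AKR arrays and between −0.27 and −0.06 on the SWR arrays. The AKR arrays varied more than the SWR arrays, and the count of called members ran from 4 to 8 with 1 array left out. Hspa1b was 2.72 higher in AKR than the mean of the other 4 strains on the log2 scale (adjusted p = 9.6e-07), while SWR differed from that mean by −0.24 (adjusted p = 0.67).

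**Figure D2:**
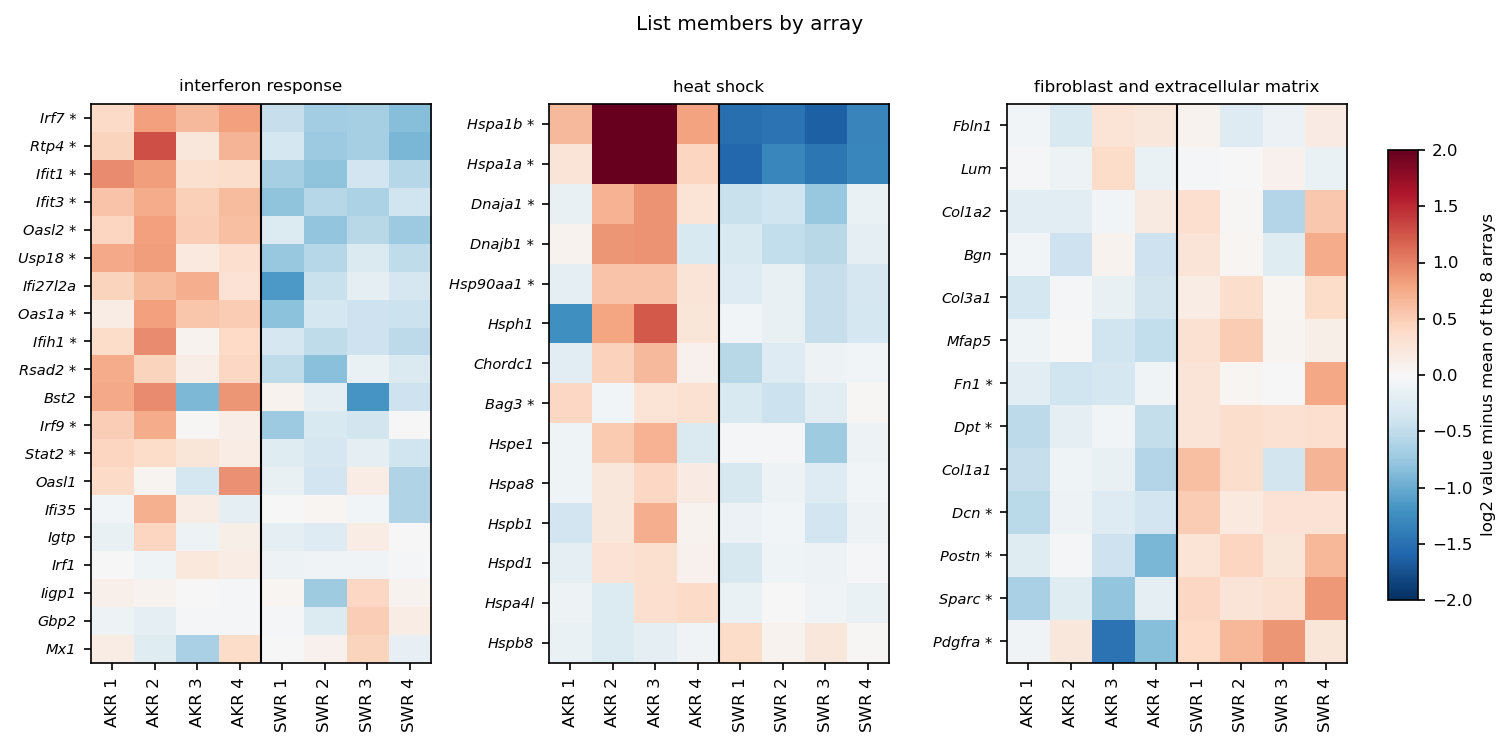
Tested members of 3 lists on the 8 arrays, coloured by the log2 value minus the gene's mean over these 8 arrays, with colours clipped at −2 and 2 and called genes marked by an asterisk. The interferon and heat shock genes are mostly red in AKR, with Hspa1b and Hspa1a darkest in AKR replicates 2 and 3, and the called matrix genes are mostly blue in AKR.

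The major histocompatibility complex on chromosome 17 encodes the class I and class II proteins that present peptides to T cells, and several other genes, Hspa1a and Hspa1b among them. Of 60 tested genes from H2-K1 to H2-Q10 in the RefSeq order, 8 were higher and 2 lower in AKR, which is 16.7%, against 9.02% of the 410 tested genes on the rest of the chromosome. Both ends of this interval are called genes, and the calls hold H2-K1, H2-D1 and H2-Q10 and the near-identical Hspa1b and Hspa1a. The ends were thus not chosen apart from the values, and the shares are a description. H2-Q10, a class I gene whose product is secreted, had the largest difference of any named gene. It read 9.00, 9.56, 9.96 and 9.25 on the AKR arrays and 4.52, 4.76, 4.43 and 4.75 on the SWR arrays, which is 28.4-fold on this scale (log2 difference 4.83 ± 0.24 SE, adjusted p = 6.5e-13). The SWR arrays were close to 4, the log2 value of an intensity of 0, so the fold depends on the pseudocount. FVB was as low as SWR, at 4.52, and 129X1 as high as AKR, at 9.69.

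H2-D1 and H2-K1 encode classical class I proteins, and at the brightest probe set of each AKR was lower. H2-D1 read 8.27, 8.18, 7.94 and 7.97 in AKR and 11.35, 11.02, 11.03 and 10.57 in SWR (7.47-fold, adjusted p = 1.1e-12). H2-K1 read 8.63, 8.71, 9.03 and 8.69 in AKR and 11.21, 11.02, 10.77 and 10.76 in SWR (4.51-fold, adjusted p = 5.8e-10). Neither gene had overlapping arrays, but the direction for H2-D1 depended on the probe set. Of its 8 probe sets 4 were lower in AKR, with log2 differences down to −3.92, 3 were higher, up to 4.38, and 1 was not called. Of the 4 for H2-K1, 3 were lower and 1 was not called. Class I genes resemble each other closely in sequence and differ between strains, so no level of a single class I gene can be read from these values.

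Other genes of the interval moved with the strain as well. D17H6S56E-5, which carries only a locus name here, read 9.38, 9.58, 9.58 and 9.45 in AKR and 6.23, 6.76, 6.66 and 7.02 in SWR (7.11-fold, adjusted p = 2.4e-11). FVB, at 6.59, resembled SWR, and 129X1, at 9.57, resembled AKR. Vars, the valyl-tRNA synthetase, was 2.27-fold higher in AKR (adjusted p = 6.7e-06), the class II chain H2-Eb1 was at 7.94 against 6.93 (adjusted p = 4.1e-05), the peptide transporter subunit Tap2 1.55-fold higher and the immunoproteasome subunit Psmb8 1.43-fold. The other 7 tested class II genes were not called, so that 12.5% of the tested ones were (background 10.2%). H2-Ab1 had a log2 difference of −0.67 and Cd74 −0.48. B2m, the common light chain of class I, had 12.20 against 11.80 (adjusted p = 0.13). Of the 12 tested genes of class I and antigen processing, 3 were higher and 2 lower (41.7%, background 10.2%), with a median of 0.34. These calls include H2-Q10, H2-D1 and H2-K1, for which no single level can be read, so the share rests in large part on them.

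Beyond chromosome 17, the genes that stood furthest above SWR in AKR had varied roles. Nupr1, a stress-induced nuclear protein, read 10.54, 10.17, 10.69 and 10.78 in AKR and 8.18, 8.27, 7.69 and 8.17 in SWR (5.52-fold, adjusted p = 7.3e-09). The SWR arrays were below the means of all the other strains, which ran from 9.52 to 11.49. Btg2, an antiproliferative gene of the p53 response, was at 8.77, 8.75, 8.47 and 9.13 against 6.53, 6.39, 6.84 and 6.63 (4.54-fold, adjusted p = 1.8e-10). Its second probe set was not called, with 8.09 against 8.05. Apof, an apolipoprotein that inhibits cholesteryl ester transfer, read 9.65, 10.52, 10.39 and 10.11 in AKR and 8.34, 8.28, 8.07 and 7.69 in SWR (4.21-fold, adjusted p = 6.3e-07), and the AKR arrays were above the means of all other strains.

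Gpx2, a glutathione peroxidase of epithelia, was 3.65-fold higher in AKR, at 6.87, 6.56, 6.86 and 6.62 against 4.53, 4.52, 5.79 and 4.59, with SWR replicate 3 apart from its group. Adi1, an enzyme of methionine salvage, was 3.58-fold higher at its brightest probe set and not called at another. Dmac2l, which encodes a factor of mitochondrial ATP synthase, was 3.33-fold higher, and SWR was below the means of all other strains. Batf2, a transcription factor that interferon induces, was 3.10-fold higher (adjusted p = 0.012), again with SWR replicate 3 at 5.59 and the other SWR arrays at 4.62 to 4.70. For Gpx2 and Batf2 these SWR arrays were near the bottom of the scale, so the folds depend on the pseudocount.

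Tac1, the precursor of the neuropeptides substance P and neurokinin A, had the largest difference of any named gene in the other direction. It read 5.92, 5.39, 5.78 and 5.71 on the AKR arrays and 10.02, 9.68, 10.48 and 10.35 on the SWR arrays, with means of 5.70 ± 0.22 and 10.13 ± 0.36 (SD, n = 4), 21.6-fold lower in AKR (adjusted p = 9.3e-15). The strains formed no single level, since C57BL/6 was at 6.50, FVB at 8.33, 129X1 at 9.30 and BALB/c at 10.44. The peptidase Mme (neprilysin), which cleaves substance P, ran the opposite way. It read 11.03, 11.14, 10.87 and 10.69 in AKR and 8.77, 8.57, 8.80 and 8.59 in SWR (4.76-fold higher, adjusted p = 2.4e-11), and its second probe set was 9.28-fold higher. The peptidases Anpep and Ace were 1.43-fold and 1.38-fold higher in AKR. The neurokinin receptor gene Tacr2 had a log2 difference of 0.59, and its call was lost without any 1 of 3 of the arrays. Cpe, which trims peptide precursors, was lower by 0.64, a call lost with 7 of the 8 arrays left out in turn, and its other probe set had an uncalled difference of 0.88 the other way. Of 16 tested genes of this list, 4 were higher and 2 lower (37.5%, background 10.2%), with a median of 0.12. Npy had an uncalled difference of 1.01.

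**Figure D3:**
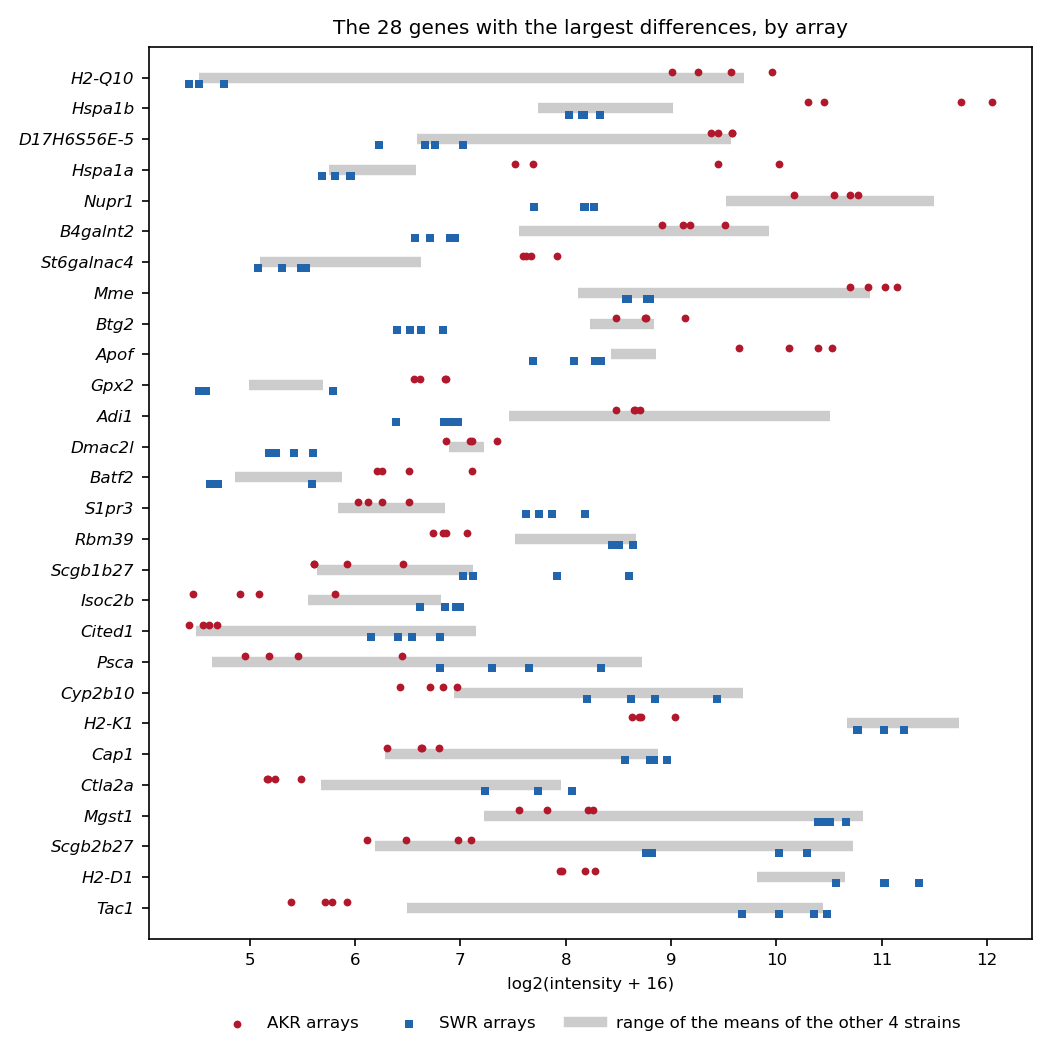
The log2(intensity + 16) of the 28 named genes with the largest differences, red circles for the 4 AKR arrays, blue squares for the 4 SWR arrays and grey bars from the lowest to the highest mean of the other 4 strains. The 2 groups are apart for every gene by the rule that chose them, and the grey bars reach from the AKR to the SWR level for genes such as H2-Q10, D17H6S56E-5 and Mgst1.

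Genes of secretion and detoxification were among those lowest in AKR. Scgb2b27 and Scgb1b27, subunits of androgen-binding proteins of the secretoglobin family, were 6.97-fold and 3.40-fold lower. Scgb2b27 read 6.98, 6.12, 6.49 and 7.10 in AKR and 8.81, 8.76, 10.29 and 10.02 in SWR (adjusted p = 8e-05), and Scgb1b27 was likewise higher in SWR replicates 3 and 4 than in 1 and 2. These subunits belong to a large family of close copies, so their probe sets may take up more than 1 gene. Psca, a surface protein of prostate epithelium, read 6.45, 4.96, 5.18 and 5.46 in AKR and 7.65, 7.30, 6.81 and 8.33 in SWR (4.03-fold lower in AKR, adjusted p = 5.1e-05).

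Mgst1, a membrane-bound glutathione transferase, read 8.21, 8.26, 7.82 and 7.56 in AKR and 10.51, 10.39, 10.66 and 10.44 in SWR (5.82-fold lower, adjusted p = 7.5e-10). The other strains fell on either side, with 129X1 and FVB at 10.72 and 10.82 and BALB/c and C57BL/6 at 7.99 and 7.22. Cyp2b10, a drug-metabolising cytochrome, was 4.12-fold lower at its brightest probe set, and all 3 of its probe sets were lower. Within the glutathione and detoxification list of 24 tested genes, 3 were higher and 3 lower (25%, background 10.2%), with a median of 0.09. The higher ones included Gpx2 and the secreted peroxidase Gpx3 (2.24-fold, at 11.72 against 10.56), and the lower ones Mgst1 and the mitochondrial and peroxisomal transferase Gstk1 (by 0.83 on the log2 scale).

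Other genes far lower in AKR were Ctla2a, a cysteine protease inhibitor, Cap1, which recycles actin monomers, Cited1, a transcriptional co-regulator, and S1pr3, a receptor for sphingosine 1-phosphate. Ctla2a read 5.24, 5.49, 5.16 and 5.18 in AKR and 7.23, 7.23, 7.74 and 8.06 in SWR (4.92-fold, adjusted p = 1.2e-08), and it has a near-identical copy. Cap1 read 6.64, 6.31, 6.63 and 6.80 in AKR and 8.96, 8.83, 8.56 and 8.80 in SWR (4.58-fold, adjusted p = 4.1e-12), and both of its probe sets were lower. S1pr3 was 3.10-fold lower and Cited1 3.74-fold, with the AKR arrays of Cited1 near the bottom of the scale at 4.43 to 4.69. Isoc2b was 3.45-fold lower and the splicing factor gene Rbm39 3.10-fold, although of the 9 probe sets of Rbm39 1 was higher and 5 were not called.

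Larger differences still were seen at probe sets with no symbol in the platform annotation. Probe set 1456182_x_at read 11.61, 11.54, 10.71 and 12.23 in AKR and 4.07, 4.45, 4.06 and 4.12 in SWR, a log2 difference of 7.35, and 1433438_x_at had a difference of 7.21. For the first, the means of the other 4 strains were between 4.09 and 4.32, so AKR alone of the 6 strains was off the bottom of the scale. In the other direction, 1455869_at read 5.78, 4.55, 4.82 and 4.80 in AKR and 11.14, 11.17, 11.22 and 11.37 in SWR. FVB and C57BL/6 were also high at this probe set, at 11.41 and 10.24, while 129X1 and BALB/c were at 4.93 and 5.20. At 1431213_a_at the difference was −4.46, with C57BL/6 and FVB again high.

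Called enzymes that extend or cap sugar chains were higher in AKR, and 1 that starts them was lower. B4galnt2, which adds N-acetylgalactosamine to form the Sda antigen, read 9.12, 9.51, 9.18 and 8.91 in AKR and 6.91, 6.71, 6.94 and 6.57 in SWR (5.26-fold higher in AKR, adjusted p = 3e-11). St6galnac4, a sialyltransferase, read 7.91, 7.62, 7.67 and 7.60 in AKR and 5.53, 5.31, 5.49 and 5.08 in SWR (5.09-fold, adjusted p = 3.9e-10), and its relative St6galnac6 was 2.49-fold higher. AKR was above the mean of the other 4 strains for St6galnac4 by 1.86 on the log2 scale, and SWR was below it by 0.48. Galnt2, which starts mucin-type O-glycans, was 2.45-fold lower in AKR at 1 probe set and 1.58-fold lower at another, and the last of its 3 probe sets was not called. Of 19 tested genes of the list 3 were higher and 1 lower (21.1%, background 10.2%), with a median of 0.18.

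Metallothionein and zinc transport genes included 1 with a wide spread inside AKR. Mt3, a metallothionein, read 4.75, 8.15, 8.36 and 8.01 in AKR and 4.35, 4.50, 5.30 and 4.39 in SWR (6.42-fold higher, adjusted p = 0.00079). AKR replicate 1 lay among the SWR arrays and the other 3 AKR arrays well above them. Without that array the difference was 11.6-fold. Slc30a2, a zinc exporter of secretory vesicles, had the same pattern, at 4.29, 6.56, 6.81 and 6.30 in AKR and 5.10, 4.36, 4.25 and 4.39 in SWR. Its adjusted p of 0.032 was lost when any of 6 arrays was left out, and the difference was 4.10-fold without AKR replicate 1. For Mt3 the SD was 1.72 in AKR and 0.45 in SWR, and its p rests on 1 spread for all strains. Most SWR arrays of both genes were near 4, the log2 value of an intensity of 0, so these folds depend on the pseudocount. AKR replicate 1 was also low for Pbsn (probasin) and Msmb, secretory genes that mark the other prostate lobes more than the ventral one. Pbsn read 9.84, 12.05, 12.50 and 11.99 in AKR and 11.09 to 11.67 in SWR, and Msmb read 11.88 in AKR replicate 1 and 12.72 to 13.04 in the other AKR arrays. The score of the 4 tested genes of other lobes and seminal vesicle was −0.62 in AKR replicate 1 and between −0.22 and 0.42 on the other 7 arrays, and its part in the Mt3 result was not tested.

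The abundant metallothioneins went the other way. Mt2 read 10.50, 10.40, 10.34 and 10.77 in AKR and 11.42, 11.35, 11.43 and 11.69 in SWR (1.96-fold lower, adjusted p = 2.1e-05), and Mt1 was 1.52-fold lower, at 1 of its 2 probe sets. The zinc importer Slc39a8 was 1.75-fold higher and Slc39a6 was lower by 0.83 on the log2 scale, with an uncalled difference of 0.30 at its other probe set. Of the 16 tested genes 3 were higher and 4 lower (43.75%, background 10.2%), with a median of −0.02.

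The called genes of fibroblasts and the extracellular matrix were all lower in AKR. Of 13 tested, 0 were higher, 6 lower (background 5.42%) and 7 not called, with a median difference of −0.52 against 0.04 over all genes. Fewer stromal cells and less RNA per cell cannot be told apart in bulk tissue. Sparc, a collagen-binding matrix protein, read 8.90, 9.31, 8.76 and 9.36 in AKR and 9.97, 9.80, 9.85 and 10.41 in SWR (1.89-fold lower, adjusted p = 0.0086). The small proteoglycan gene Dcn read 9.97, 10.41, 10.24 and 10.13 against 11.02, 10.70, 10.80 and 10.80 (1.56-fold lower, adjusted p = 0.0011). Neither gene had overlapping arrays. Postn, a matrix protein of remodelling tissue, was 1.75-fold lower, Dpt 1.53-fold and fibronectin, Fn1, 1.44-fold. Pdgfra, the receptor that marks fibroblasts, was 2.12-fold lower at 1 of its 2 probe sets (adjusted p = 0.013, and 0.062 without AKR replicate 3). The collagen genes Col1a1 and Col3a1 had differences of −0.64 and −0.45 and were not called (adjusted p = 0.067 and 0.055). The list score was between −0.46 and −0.26 on the AKR arrays and between −0.05 and 0.31 on the SWR arrays, and 4 to 8 members were called with 1 array left out.

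The matrix genes Dcn, Postn, Sparc and Pdgfra were also tested against the other 4 strains. Dcn was 0.72 below their mean in AKR (adjusted p = 1.8e-05) and differed from it by −0.07 in SWR (adjusted p = 0.70). Postn was 0.82 below in AKR (adjusted p = 0.0008) and differed by −0.02 in SWR. Sparc was 0.57 below in AKR (adjusted p = 0.039), but BALB/c, at 9.13, was close to AKR, at 9.09. Pdgfra passed for neither strain (adjusted p = 0.064 for AKR and 0.21 for SWR). For the smooth muscle genes Tagln and Actg2, SWR was 0.51 and 0.62 above the mean (adjusted p = 0.011 and 0.0074). AKR differed from it by −0.28 and −0.18 (adjusted p = 0.18 and 0.48). FVB and 129X1 were close to SWR, at 11.24 and 11.15 against 11.33 for Tagln and 8.33 and 8.23 against 8.49 for Actg2. SWR replicate 4 was the highest SWR array for both genes, at 11.84 and 9.07. Whether the AKR and SWR departures differ in size was not tested for these genes either.

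Of 11 tested smooth muscle genes 3 were lower in AKR and 0 higher (27.3%, background 10.2%), with a median of −0.44. Tagln, an actin-binding protein of contractile cells, read 10.45, 10.80, 10.55 and 10.36 in AKR and 11.21, 11.21, 11.06 and 11.84 in SWR (1.73-fold lower, adjusted p = 0.0022). Actg2, the enteric actin, was 1.75-fold lower, and the myosin heavy chain Myh11 was lower by 0.70 (adjusted p = 0.021), a call lost without AKR replicate 3, AKR replicate 4 or SWR replicate 4. Acta2 had 11.31 against 11.75 (adjusted p = 0.064). SWR replicate 4, the array with the high skeletal muscle score, also had the highest smooth muscle score, 0.80 against 0.02 to 0.22 on the other SWR arrays and −0.35 to 0.03 in AKR. Without it Myh11 had an adjusted p of 0.083. Of 8 tested basal epithelium genes 1 was called (12.5%, background 10.2%). It was the basal keratin Krt14, lower by 0.69 in a call lost with any of 4 arrays left out. Krt5 and Krt15 had differences of −0.24 and −0.59 and were not called.

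**Figure D4:**
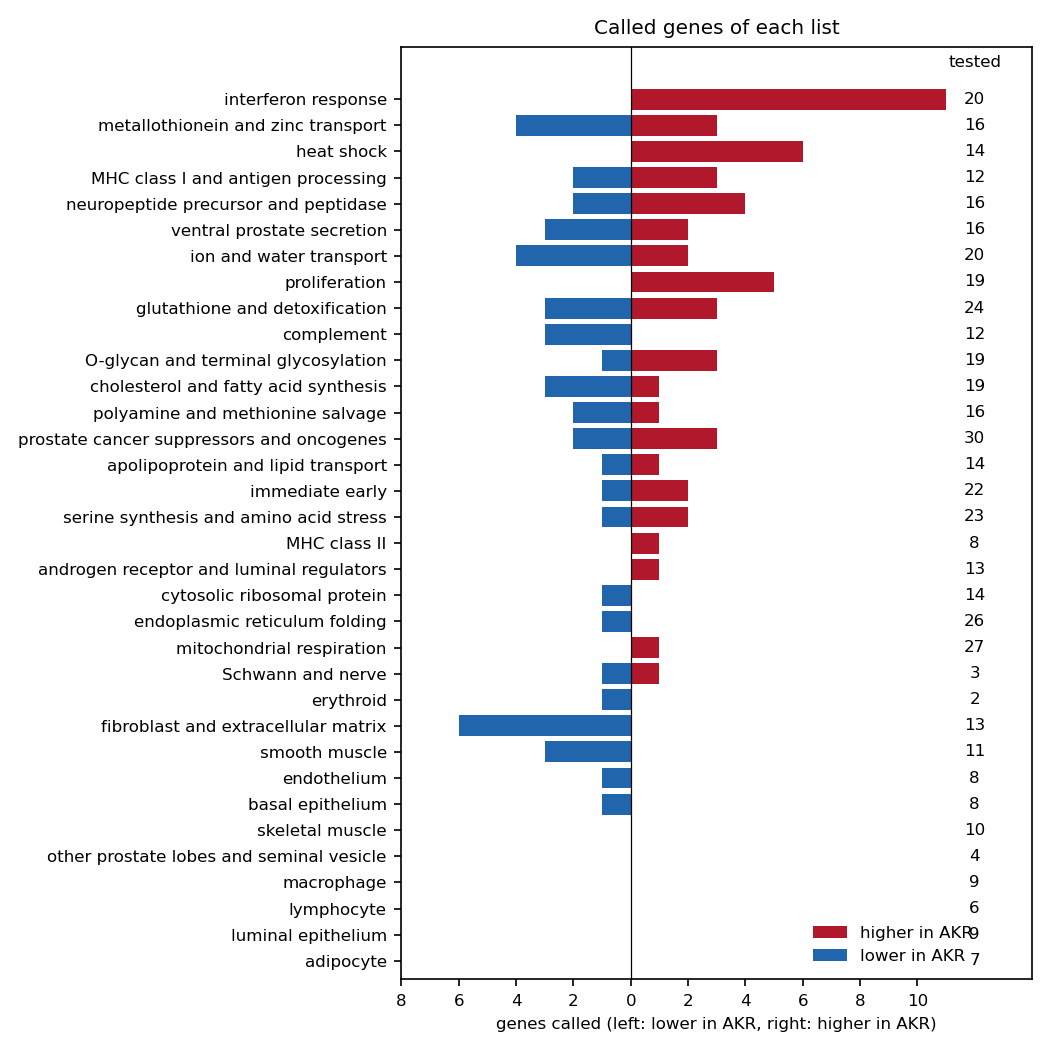
Number of called genes in each of the 34 gene lists, with those lower in AKR to the left and those higher in AKR to the right, and the number of tested genes at the right edge. The interferon bar reaches 11 of 20 and the matrix bar 6 of 13, each on a single side.

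Of 16 tested ventral prostate secretion genes 2 were higher and 3 lower in AKR (31.25%, background 10.2%). The lower ones included Scgb2b27 and Scgb1b27 and the higher ones Wfdc2, a secreted protein of epithelia, at 1.37-fold. Agr2 and Azgp1, abundant products of the secretory pathway, were not called, at 10.50 against 10.86 and 11.93 against 11.62. Among 26 endoplasmic reticulum folding genes 1 was called (3.85%, background 10.2%), Sec61b of the translocation channel, lower by 0.75. Tmprss2, an androgen-regulated serine protease of luminal cells, was the 1 called member of the 13 tested androgen and luminal regulators (7.69%, background 10.2%). It read 9.97, 9.77, 9.94 and 10.08 in AKR and 9.02, 9.31, 9.10 and 9.21 in SWR (1.72-fold higher, adjusted p = 0.0032), and AKR was 0.93 above the mean of the other 4 strains (adjusted p = 3.4e-05). The regulators Foxa1 and Hoxb13 were not called, at 10.31 against 10.62 and 10.13 against 9.91.

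Proliferation genes had differences of small size. Of 19 tested, 5 were higher in AKR (background 4.76%) and 0 lower, with a median of 0.34, and 2 to 4 were called with 1 array left out. Without AKR replicate 3, AKR replicate 4, SWR replicate 1 or SWR replicate 2 the count was 2. The mitotic spindle gene Nusap1 was 0.75 higher (adjusted p = 0.0019). The ribonucleotide reductase subunit Rrm1 was 0.39 higher, a call lost with either of 2 arrays left out, and its other probe set was not called. The thymidine kinase Tk1 was 0.68 higher (adjusted p = 0.039, lost with any of 7 arrays left out). Mki67 had a difference of 0.56 that was not called (adjusted p = 0.083). The list score was 0.20 to 0.38 on the AKR arrays and −0.06 to 0.03 on the SWR arrays, so the groups did not overlap in it.

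Of 40 listed suppressors and oncogenes of prostate cancer 30 were tested, and 3 were higher and 2 lower, with a median of −0.02. That is 16.7% called against 10.2% of all genes, and the count ran from 2 to 7 with 1 array left out. Mycn, a growth-promoting transcription factor, read 7.29, 7.01, 7.25 and 6.71 in AKR and 6.24, 6.32, 4.66 and 4.51 in SWR (3.10-fold, adjusted p = 0.035), and its call was lost with any of 5 arrays left out. SWR replicates 3 and 4 were near the bottom of the scale, so the fold depends on the pseudocount. Myc was lower by 0.46 (adjusted p = 0.0035), with 6.51 to 6.79 in AKR and 7.06 to 7.24 in SWR. The cyclin gene Ccnd1 was 0.58 higher at its brightest probe set, with overlap, in a call lost with any of 4 arrays left out. All 3 of its probe sets were higher. Brca2, a DNA repair gene that proliferating cells also raise, was 1.29-fold higher (adjusted p = 0.045). Fgfr1 was lower by 0.46, a call lost with any of 4 arrays left out.

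In polyamine synthesis, which the prostate carries out at a high rate, Odc1, the rate-limiting decarboxylase, read 9.52, 9.49, 9.19 and 9.17 in AKR and 10.17, 10.24, 10.16 and 10.02 in SWR (1.75-fold lower, adjusted p = 4.1e-06). All 3 of its probe sets were lower. In methionine metabolism, Adi1 was higher in AKR, as given above, and Mat2b, a subunit of methionine adenosyltransferase, was lower by 0.67. Asns, the asparagine synthetase, read 8.22 to 8.33 in AKR and 8.98 to 9.29 in SWR (1.82-fold lower, adjusted p = 1.4e-06). Of 23 genes tested for serine synthesis and amino acid stress, 2 were higher and 1 lower (13.0%, background 10.2%), with a median of 0.13.

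Of 12 tested complement genes 3 were lower in AKR and 0 higher (25%, background 10.2%), with a median of −0.06. Cd59a, which blocks the membrane attack complex, was 2.40-fold lower at its brightest probe set (adjusted p = 3.5e-07) and 7.92-fold lower at another. Serping1, the C1 inhibitor, was lower by 0.93 and the protease C1ra by 0.66. Among ion and water transport genes 2 of 20 were higher and 4 lower (30%, background 10.2%). The potassium channel Kcnk3 was 2.36-fold higher at 1 of its 3 probe sets, and Clca1, a secreted protein of mucous epithelia, 2.33-fold lower. Both strain means lay above those of the others for Clca1, at 5.31 in AKR and 6.53 in SWR against strain means of 4.28 to 4.66.

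Of 19 cholesterol and fatty acid genes 1 was higher and 3 lower (21.1% called, against 10.2% of all genes), with Srebf1, a regulator of lipid synthesis, at 0.46 and Dhcr7, the last enzyme of the cholesterol pathway, at −0.56. Of 27 mitochondrial respiration genes 1 was higher and 0 lower (3.70%, background 10.2%). Of 14 ribosomal protein genes Rplp0 alone was called (7.14%, background 10.2%), lower by 0.58. Of 22 immediate early genes 2 were higher and 1 lower (13.6%, background 10.2%), with Jun at 0.55, a call lost with any of 3 arrays left out.

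The called probe sets were divided almost evenly between the strains when each was tested against the mean of the other 4. AKR differed from that mean at 9.75% of all tested probe sets and SWR at 10.3%. Of the 1583 called between AKR and SWR, 502 (31.7%) passed for AKR alone and 542 (34.2%) for SWR alone. A further 96 (6.06%) passed for both in opposite directions, 32 for both in the same direction and 411 (26.0%) for neither. Both comparisons share the 16 arrays of the other strains and each shares 4 arrays with the pair, so the counts are a description. AKR was the highest and SWR the lowest of the 6 strain means at 248 called probe sets, and the reverse held at 168.

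**Figure D5:**
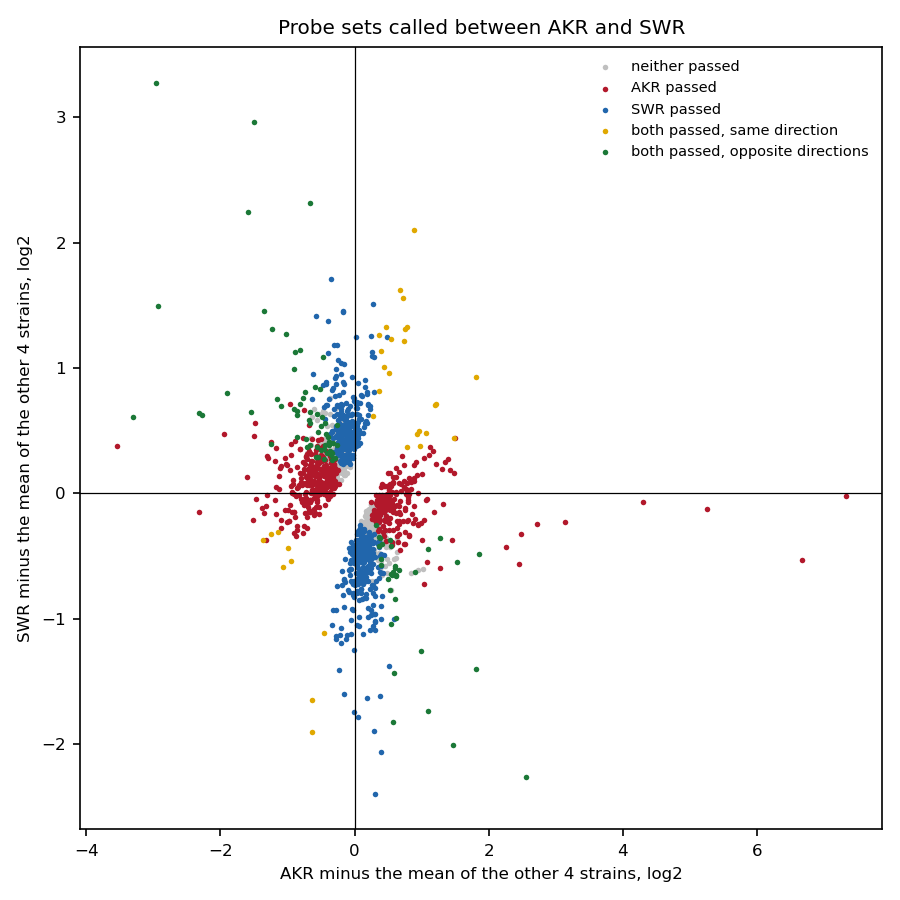
Each point is 1 of the 1583 probe sets called between AKR and SWR, with AKR minus the mean of the other 4 strains on the x axis and SWR minus the same mean on the y axis, both in log2. Most points lie along one axis or the other, and the 96 green points passed for both strains in opposite directions.

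Among genes that passed for both strains in opposite directions, those with the largest differences at the brightest probe set were H2-Q10, D17H6S56E-5, B4galnt2, St6galnac4 and Mme on the side of AKR. Tac1, H2-D1, Scgb2b27, Mgst1 and Ctla2a led on the side of SWR, although the direction of H2-D1 turned at other probe sets, up to 4.38 higher in AKR. Relative to that mean, the difference of Tac1 was −2.94 in AKR (adjusted p = 2.6e-13) and 1.49 in SWR (adjusted p = 5.8e-08). Mme was 0.99 above in AKR (adjusted p = 7.4e-07) and 1.26 below in SWR (adjusted p = 1.3e-08).

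Different probe sets of a gene often gave different calls. Of 3315 genes with several tested probe sets 660 had a called one, 71 had all called in 1 direction, 581 had some called and the others not, and 8 had calls in opposite directions. These 8 were Anxa7, Eif4ebp1, H2-D1, Hagh, Htra3, Rbm39, Runx1 and Ube2j1. Along the genome, the share of tested genes called ran from 8.41% on chromosome 12 to 13.0% on chromosome 6. Of the 28 genes with the largest differences 6 lay on chromosome 17, 5 on chromosome 7 and 3 on chromosome 12. These chromosomes held 470, 716 and 309 of the 9422 tested genes placed on a chromosome. The counts take close copies as separate genes, such as Hspa1b and Hspa1a, the class I genes, and Scgb2b27 and Scgb1b27. They are a description. Runs of at least 4 neighbouring called genes were seen at 3 places. On chromosome 5 the run held Cldn15, Znhit1, Plod3 and Ap1s1, on chromosome 9 Ei24, Fez1, Pknox2, Tmem218 and Slc37a2, and on chromosome 16 Fam3b, Tmprss2, Ripk4 and C2cd2. Each run mixed higher and lower genes.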

How the data were processed

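Total RNA of ventral prostate was measured on 24 Affymetrix arrays, and the AKR and SWR arrays are described here. The deposited values are intensities on a linear scale, 1 per probe set and array, and the authors made them with MAS5, per the submitters' processing notes. The version, settings and genome build are not given in the sources used here. All deposited columns had a mean intensity of 143, and 4 values on the 8 arrays were 0. Arrays have no read depth, so their number limits the precision.

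A common 2% trimmed mean of 98.7 was set for all arrays (91.4 to 105 before), and log2 was taken after adding 16. After 64 controls were removed, 6851 probe sets that did not exceed their array's 40th percentile on at least 4 arrays were left out, which left 15775. Symbols came from the platform annotation (20393 probe sets with 1 symbol, 691 with several, 1606 with none), and 20372 matched a RefSeq gene of GRCm38.p6. Probe sets with several symbols named no gene. A gene was read at its brightest tested probe set over the 24 arrays. Listed genes without such a probe set were not analysed here. Differences between the strains in the sequence under the probes were not tested.

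limma 3.58.1 in R 4.3.3 fitted 1 coefficient per strain to all 24 arrays, and eBayes moderated the variances, with 4.85 prior beside 18 residual degrees of freedom. Two-sided tests were adjusted after Benjamini and Hochberg over all tested probe sets. SE is that of the fitted difference, SD that of the 4 arrays. The fit takes 1 spread per probe set over all 6 strains, so SE and p do not reflect a wider spread within a strain. Named are the 14 genes in each direction with the largest difference among called genes whose groups did not overlap, the 5 in each direction with the largest difference among those where both strains passed against the other 4 in opposite directions, and up to 4 called members per list with the largest differences. Further called members, such as Oasl2, Oas1a, Brca2 and Vars, and the probe sets without symbols were chosen after their values were seen. The members and lists were chosen with earlier results of these data known. Lists are described by counts and medians without a set test. Arrays with the same replicate number were not paired: the correlation of deviations of AKR and SWR arrays with the same number was −0.02, 0.15, −0.08 and 0.10. The fit was tested on simulated log2 values with the same spread in every strain. The scaling, the filter and the list counts were not tested in this way. The alternatives were other pseudocounts, filters and scalings, a trend in the prior variance, the 8 arrays alone, the replicate number in the model and each array left out. For the lists alone, the mean of all tested probe sets per gene was a further one. Nothing in the labels gives a scan or hybridisation batch.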

Additional observations from a re-analysis of the deposited data

Results flagged for a closer look

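Among 216 groups of 4 arrays checked, 18 held an array whose gap to the nearest of the others, divided by the group's range, exceeded Dixon's critical value for 4 samples, which chance passes in about 1 of 20 groups. On the log2 scale, SWR replicate 3 was low for Nupr1 (7.69) and Srebf1 (8.01) and high for Gpx2 (5.79), Batf2 (5.59), Mt3 (5.30) and Tap2 (6.61). SWR replicate 4 was high for Apod (9.63), Gpx3 (11.01) and Actg2 (9.07), low for Alas2 (6.15) and high in the ion and water transport score (0.176). SWR replicate 2 was low for H2-Eb1 (6.49), Tacr2 (5.07) and the Schwann and nerve score (−0.0476), and SWR replicate 1 was high for Slc30a2 (5.10). In AKR, replicate 1 was high for C1ra (6.39) and low for Mt3 (4.75, with the other AKR arrays between 8.01 and 8.36), and replicate 4 was high for Rrm1 (7.31). None of these distances has been traced to a cause in the labels.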

How the results depend on the processing

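Of the totals and list counts under alternative settings, 281 stayed within 1.5 times the value reported and 33 did not. With the 8 arrays fitted alone 911 probe sets were called (433 higher, 478 lower in AKR), 853 of them among the 1583, and the called members were 3 for heat shock, 2 for ion and water transport, 2 for proliferation and 3 for prostate cancer genes. With a pseudocount of 64 the probe sets past 2-fold numbered 90. Without a filter 3 prostate cancer genes were called, and with a 60th percentile filter 3 proliferation genes. With 1 array left out the totals ran from 1068 to 1985 probe sets called, 497 to 1012 higher, 569 to 973 lower and 240 to 313 past 2-fold, and from 989 to 1550 for AKR and 928 to 1679 for SWR against the other 4 strains, with 64 to 98 opposite. The list counts ran from 10 to 12 for interferon, 4 to 8 for heat shock, 4 to 8 for fibroblast, 2 to 4 for proliferation, 2 to 7 for prostate cancer, 3 to 6 for ion transport, 3 to 7 for neuropeptide, 5 to 7 for metallothionein, 6 to 7 for glutathione, 4 to 6 for class I and 3 to 5 for secretion. Quantile normalization called 1538 (665 higher, 873 lower). With the replicate number as a block 1533 probe sets were called, 1449 of them shared, and the labels give no pairing. Of 86 named genes 66 kept their call with every array left out in turn, the 28 largest among them. None reversed at its brightest probe set under the settings in which named genes were refitted. A further setting, the mean of all tested probe sets per gene, recomputed list counts and medians alone. The medians of the zinc, ion transport, secretion and prostate cancer lists, all near 0, changed sign under some settings. Folds of genes dim in SWR, such as H2-Q10, Mt3, Slc30a2, Gpx2, Batf2 and Mycn, change with the pseudocount. With a pseudocount of 4, Mycn and Slc30a2 both had a log2 difference of 2.12, and neither was called (adjusted p = 0.051 and 0.055).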
